A study of Canis lupus familiaris with 12 samples.

Results

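The citrate cycle oxidises the acetyl group of acetyl-CoA in the mitochondrial matrix and passes the electrons to the respiratory chain, while its intermediates leave for the synthesis of lipids, amino acids and nucleotides. Pyruvate from glycolysis enters through the pyruvate dehydrogenase complex, whose catalytic E1 subunit is switched off when kinases phosphorylate it and switched on again by phosphatases. Growing tumour cells draw on the cycle for building blocks as well as for energy.

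Described here are 9 genes of pyruvate entry and of the cycle, which are PDHA1, CS, IDH3A, OGDH, DLST, SUCLG1, SUCLA2, FH and MDH2. They were chosen by name, and the platform annotation gave 8 of them at least 1 probe set of their own, of 15115 genes with such a probe set on the array. MDH2, the mitochondrial malate dehydrogenase, was annotated on 2 probe sets that carry a pseudogene's symbol as well, so no level is given for it. The other 8 genes had 18 probe sets in all, and each gene is described by its brightest one, that with the highest mean over the 12 arrays, with the others beside it.

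The arrays are Affymetrix Canine Genome 2.0 arrays of C2 cells, a canine mast cell tumour line in which a tandem duplication near the membrane keeps the receptor kinase KIT active without its ligand. Cultures were harvested untreated at 0 h and after 12, 24 and 72 h with 100 nM masitinib, an inhibitor of KIT and related tyrosine kinases, with 3 arrays per time point. The replicates are flasks of this 1 line, so any p-value speaks for the spread among flasks alone. Untreated cultures of later times were not analysed here, so an effect of masitinib and one of the hours in culture cannot be told apart. In a bulk RNA sample a smaller share of cells with a transcript and less of it in each cell cannot be told apart either.

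The deposited values are log2 expression values after quantile normalization, with array medians of 5.89 to 5.95, and Pearson's r between arrays of 1 time point was 0.995 to 0.998 over probe sets. Of 9 mast cell markers 8 were measured, and arrays of 0, 12, 24 and 72 h had mean marker levels of 11.7 to 11.8, 12.2, 12.5 and 12.4 to 12.6. Markers of other cells had mean levels per array of 5.27 to 5.48 for macrophages, 4.90 to 5.18 for lymphocytes, 4.64 to 4.88 for fibroblasts and 5.17 to 6.36 for epithelium, with the epithelial ones at 5.77 to 5.82 at 0 h, 6.12 to 6.36 at 12 h, 5.91 to 5.95 at 24 h and 5.17 to 5.25 at 72 h. Of the 4 epithelial markers measured, 2 lay above the array median at 0 h, and EPCAM read 7.11 to 9.64 over all arrays. EPCAM and KRT18 rose at 12 h, by a log2 change of 0.81 and 0.78, and fell at 72 h, with -1.54 and -1.15. CDH1 rose at 72 h by 0.63, and KRT8 had -0.29. The part of the markers of other cells in the results was not tested. As a sign of RNA quality, the actin probe set at the 3′ end exceeded that at the 5′ end by 0.772 to 1.23 at 0 h, 0.649 to 1.18 at 12 h, 0.805 to 1.28 at 24 h and 0.895 to 1.40 at 72 h (log2), and the times overlapped. For GAPDH this difference was 0.565 to 0.685 at 0 h, 0.399 to 0.516 at 12 h, 0.440 to 0.756 at 24 h and 0.365 to 0.545 at 72 h, so that the arrays of 12 h and 72 h lay below those of 0 h, and its part in the results was not tested. Bacterial poly-A control transcripts read higher by 0.293, 0.603 and 0.471 at 12, 24 and 72 h (log2, mean of 36 probe sets). Shifting the arrays to equal poly-A signal moves the median change of all probe sets to -0.28, -0.57 and -0.44, against 0.01, 0.03 and 0.03 as deposited, and a change smaller than this shift can turn its direction. Whether equal amounts were added is not given in the sources used here, and all values below are on the deposited scale.

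Lower mRNA levels were found for 4 of the 8 measured genes. By their brightest probe sets IDH3A and DLST passed the test as lower from 12 h on, FH at 24 h and 72 h, and PDHA1 at 24 h. The arrays of PDHA1 at 12 h and 72 h also lay below those of 0 h, under the fold limit, and its 2 other probe sets passed at 72 h. The brightest probe sets of CS, OGDH, SUCLG1 and SUCLA2 did not pass the test against 0 h at any time. A gene passed when its adjusted p in the limma model, with Benjamini-Hochberg adjustment over 42924 probe sets, was under 0.001 and its change exceeded 1.5-fold. On this rule 2, 4 and 3 of 8 fell at 12, 24 and 72 h and none rose, which is to be read beside the 6.30%, 10.0% and 11.0% of all 15115 genes that fell and the 10.6%, 18.0% and 19.8% that were called in either direction. The median log2 change of the 8 genes was -0.14, -0.31 and -0.29, and that of all genes 0.01, 0.03 and 0.02. At an adjusted p under 0.05 with no fold limit 3, 5 and 5 of 8 differed, beside 32.8%, 42.5% and 44.8% of all genes. Without 0 h replicate 2, 0 h replicate 3 or 12 h replicate 1, the count at 12 h was 1.

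**Figure D1:**
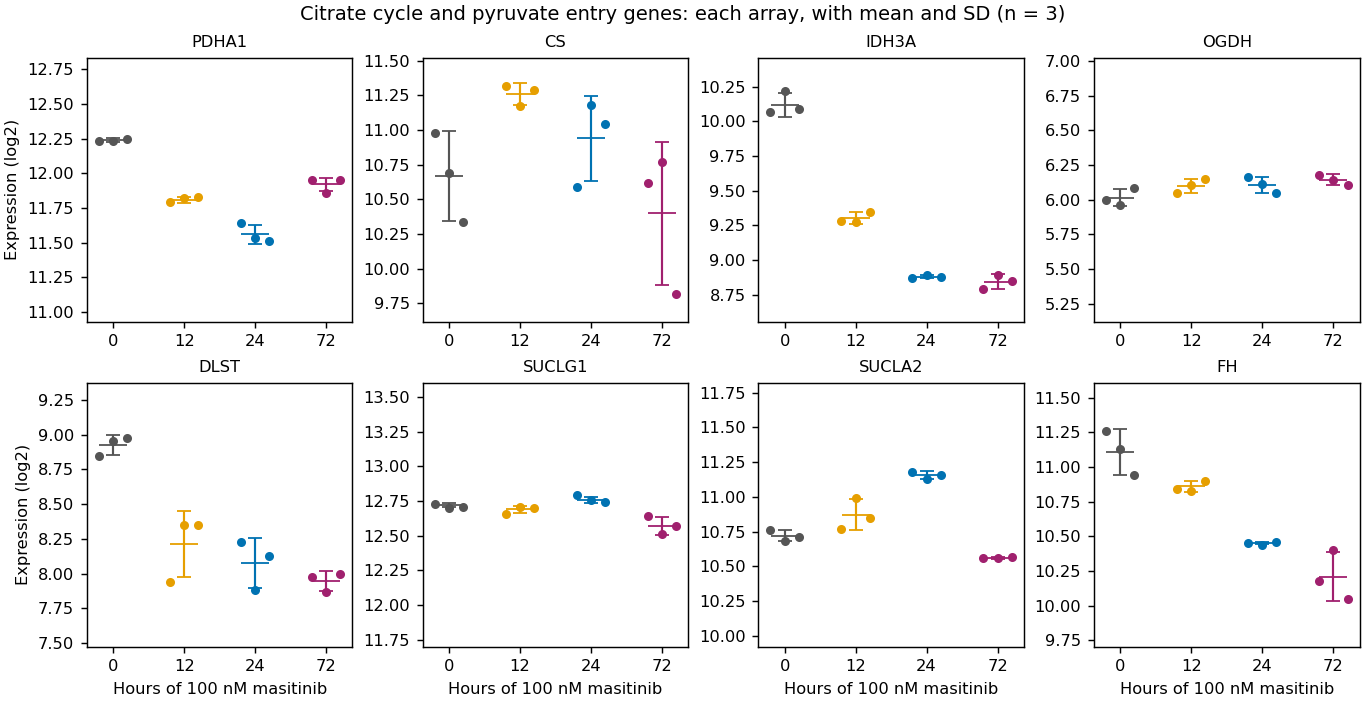
Log2 expression of the brightest probe set of each measured gene (vertical axes, each spanning the same width) at 0, 12, 24 and 72 h of masitinib (horizontal axis); points are arrays, bars the mean and SD of 3. IDH3A lies between 8.79 and 8.90 at 72 h and between 10.07 and 10.22 at 0 h, while the 3 CS arrays at 72 h spread from 9.82 to 10.77.

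PDHA1 encodes the alpha subunit of pyruvate dehydrogenase E1, which carries the phosphorylation sites that switch the complex off. Its 3 probe sets gave like changes at 12 h and differed more at 24 h and most at 72 h. The brightest read 12.23, 12.23 and 12.25 at 0 h, 11.79, 11.82 and 11.83 at 12 h, 11.64, 11.53 and 11.51 at 24 h and 11.95, 11.86 and 11.95 at 72 h. The level was lowest at 24 h, and all treated arrays lay below the untreated ones. Its log2 changes were -0.42, -0.68 and -0.32 (SE 0.0568, n = 3, adjusted p = 7.82e-05, 6.05e-07 and 0.000506), of which that at 24 h passed, and the arrays of 72 h lay above those of 24 h by 0.36 (adjusted p = 0.00062, under the fold limit).
The second probe set read 10.97, 11.15 and 11.04 at 0 h, 10.60, 10.65 and 10.68 at 12 h, 10.26, 10.12 and 10.09 at 24 h and 9.69, 9.56 and 9.58 at 72 h. Its mean was lower at each later time, with log2 changes of -0.41, -0.90 and -1.45 (SE 0.0694), called at 24 h and 72 h (adjusted p = 2.88e-07 and 3.06e-09). The dimmest read 8.80, 8.77 and 8.76 at 72 h, against 10.32, 10.41 and 10.26 at 0 h, with changes of -0.46, -0.94 and -1.56 (SE 0.062, adjusted p = 5.79e-10 at 72 h). Between 72 h and 24 h it fell by a log2 change of -0.61 (adjusted p = 2.08e-05).
The gap between the brightest probe set and these others was wider at 24 h and 72 h than at 0 h, without overlap. At 24 h the mean difference from 0 h was 0.22 over the second and 0.27 over the dimmest. The gap was 2.26, 2.31 and 2.37 over the second at 72 h, against 1.26, 1.09 and 1.21 at 0 h, a difference of 1.13. Over the dimmest it was 3.15, 3.09 and 3.19 at 72 h, against 1.90, 1.82 and 1.99 at 0 h, a difference of 1.24. The arrays of 72 h did not overlap those of 0 h in either gap, and the two-sided exact permutation test gave p = 0.1 for each at both 24 h and 72 h, the smallest that 3 arrays against 3 allow (0.273 after Benjamini-Hochberg adjustment over 30 such tests of 10 pairs of probe sets). Which transcripts or parts of the gene each probe set reads was not examined here. The direction of PDHA1 against 0 h is the same in all 3, and the size at 72 h, from -0.32 to -1.56, depends on the probe set.

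Citrate synthase, CS, joins acetyl-CoA to oxaloacetate and is often used as a marker of mitochondrial content. Its 1 probe set read 10.98, 10.69 and 10.34 at 0 h, 11.32, 11.17 and 11.29 at 12 h, 10.59, 11.18 and 11.04 at 24 h and 10.62, 10.77 and 9.82 at 72 h. The arrays of 12 h lay above those of 0 h, and the other times overlapped 0 h. The log2 changes of 0.59, 0.27 and -0.27 had the largest SE of the 8 genes, 0.232, and none passed (adjusted p = 0.0791, 0.415 and 0.414). Without 72 h replicate 3 the change at 72 h was 0.03, and on the poly-A scale that at 24 h was -0.33. The SD within time points was 0.342, larger than that of 99.0% of the 15115 genes, while those of PDHA1, IDH3A, OGDH, SUCLG1 and SUCLA2 were 0.0375 to 0.0609. Among 61 other genes of the lists used here, chosen after the values were seen, the deviations of CS from its time means had the highest positive r with those of OXCT1, which breaks down ketone bodies (r = 0.916 over 12 arrays), and of FH (r = 0.796), and the lowest r with those of MCAT, a transferase of mitochondrial fatty acid synthesis (r = -0.962), of CLPP, a matrix protease (r = -0.889) and SDHD (r = -0.811).

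The alpha subunit of isocitrate dehydrogenase 3, IDH3A, carries the catalytic site of the NAD-dependent enzyme that turns isocitrate into oxoglutarate. Its brightest probe set read 10.07, 10.22 and 10.09 in the 3 arrays at 0 h, 9.28, 9.27 and 9.35 at 12 h, 8.87, 8.89 and 8.88 at 24 h and 8.79, 8.90 and 8.85 at 72 h. Every treated array lay below every untreated one, and the arrays of 24 h and 72 h overlapped. IDH3A fell at all 3 times, with log2 changes of -0.82, -1.24 and -1.28 (SE 0.0608 and n = 3, limma adjusted p = 4.61e-07, 4.34e-09 and 2.78e-09), so that the level at 72 h was 41.2% of that at 0 h. The change between 24 h and 12 h was -0.42 (adjusted p = 0.000338), under the fold limit, and that between 72 h and 24 h was -0.04. The next probe set gave nearly the same changes, with -0.85, -1.28 and -1.31, all called. The dimmest of the 3 gave -0.40, -0.28 and -0.34, none of which passed. In each array the brightest probe set exceeded the dimmest by 0.33, 0.58 and 0.39 at 72 h, against 1.34, 1.37 and 1.41 at 0 h, without overlap.

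DLST, the succinyltransferase core of the oxoglutarate dehydrogenase complex, makes succinyl-CoA with the help of bound lipoic acid. The brighter of its probe sets read 8.85, 8.96 and 8.98 at 0 h, 7.94, 8.35 and 8.35 at 12 h, 8.23, 7.88 and 8.13 at 24 h and 7.97, 7.87 and 8.0 at 72 h. No treated array reached the untreated ones, and the treated times overlapped one another. Its log2 changes of -0.72, -0.85 and -0.98 (SE 0.115, n = 3, adjusted p = 0.000345, 5.07e-05 and 1.21e-05) passed at each time, and the last is a level of 50.6% of that at 0 h. The call at 12 h was lost without 0 h replicate 2, 0 h replicate 3 or 12 h replicate 1, with adjusted p = 0.00205, 0.0021 and 0.000902, the last with a change of -0.58. The dimmer probe set had -0.73, -0.97 and -1.01, of which the values at 24 h and 72 h passed.
OGDH, the first subunit of the same complex, which decarboxylates oxoglutarate, has 1 probe set. It read 6.00, 5.96 and 6.09 at 0 h, 6.05, 6.11 and 6.15 at 12 h, 6.16, 6.11 and 6.05 at 24 h and 6.18, 6.15 and 6.10 at 72 h, close to the array medians. Only the arrays of 72 h lay wholly above those of 0 h, by little. The log2 change was 0.09, 0.09 and 0.13 (SE 0.0602), with a 95% interval of 0.00 to 0.26 at 72 h, and its sign turns on the poly-A scale. Changes of DLST and OGDH were thus unlike in the 3 comparisons, and a difference between the genes was not tested.

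Succinyl-CoA synthetase makes ATP or GTP as it releases succinate, and is built of the alpha subunit SUCLG1 with SUCLA2 as the beta subunit of the ATP-forming enzyme or SUCLG2 as that of the GTP-forming one. The brightest probe set of SUCLG1 read 12.73, 12.70 and 12.71 at 0 h, 12.66, 12.71 and 12.70 at 12 h, 12.79, 12.76 and 12.74 at 24 h and 12.64, 12.51 and 12.57 at 72 h. All 12 arrays lay within a narrow range, with those of 72 h at its lower end. The log2 changes were -0.03, 0.05 and -0.15 (SE 0.0547), with 95% intervals of -0.15 to 0.09, -0.07 to 0.17 and -0.27 to -0.03, so changes of 1.5-fold lie outside them. On the poly-A scale the value at 24 h turns to -0.56 and that at 72 h to -0.62, which passes. The next probe set gave 0.03, 0.11 and -0.21, and the dimmest read 2.70 to 2.92 on all arrays.
The brighter probe set of SUCLA2 read 10.76, 10.68 and 10.71 at 0 h, 10.77, 10.99 and 10.85 at 12 h, 11.18, 11.13 and 11.16 at 24 h and 10.56, 10.56 and 10.57 at 72 h. Arrays of 24 h were the highest and those of 72 h the lowest, with no overlap. The changes against 0 h were 0.15, 0.44 and -0.15 (SE 0.0633, adjusted p = 0.102, 8.88e-05 and 0.0723), under the fold limit, and the first 2 become -0.14 and -0.16 on the poly-A scale. Between 72 h and 24 h SUCLA2 fell by a log2 change of -0.59 (adjusted p = 3.2e-05), just past 1.5-fold, a call that was lost without 24 h replicate 1. The dimmer probe set of SUCLA2 differed, with -0.07, -0.26 and -0.77, of which the last passed (adjusted p = 0.000165). The gap between the probe sets of SUCLA2 was 1.48, 1.53 and 1.45 at 24 h, against 0.70, 0.81 and 0.86 at 0 h (two-sided exact permutation p = 0.1, adjusted p = 0.273).
SUCLG2, the other beta subunit and no member of the 9, fell at 72 h by a log2 change of -0.69 (SE 0.0617, adjusted p = 1.03e-06), with levels of 11.24, 11.15 and 11.33 at 72 h, against 11.90, 11.94 and 11.95 at 0 h. Its dimmer probe set fell already at 24 h, with -0.63 (adjusted p = 2.64e-05), and had -0.93 at 72 h.

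**Figure D2:**
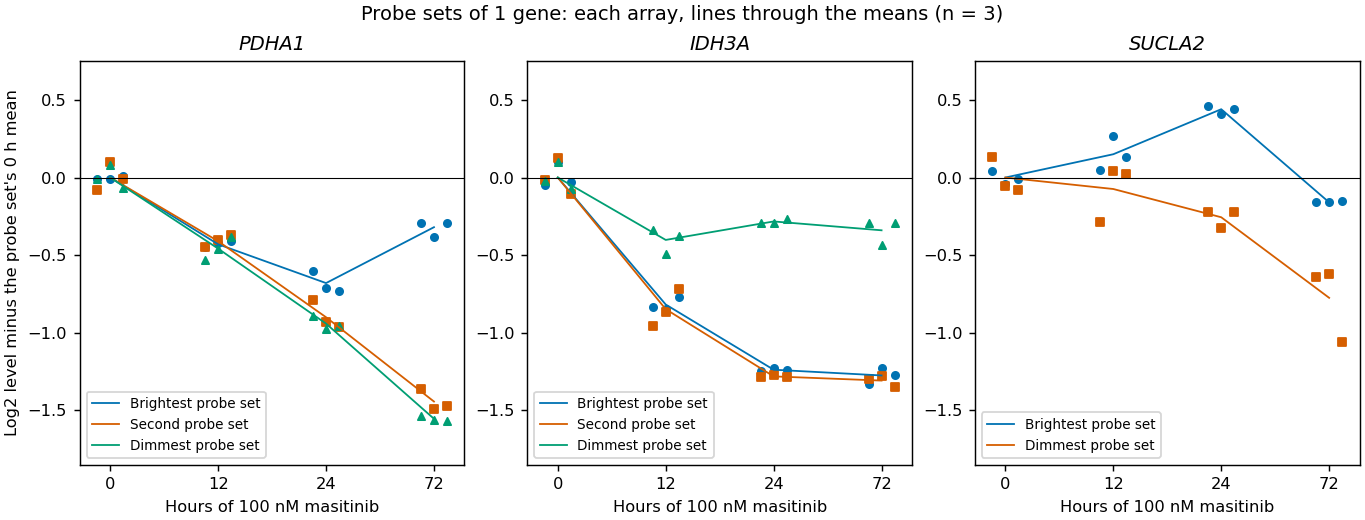
Level of each probe set of PDHA1, IDH3A and SUCLA2 minus its own 0 h mean (vertical axis, log2) at 0, 12, 24 and 72 h of masitinib (horizontal axis); points are arrays and lines join the means of 3. At 72 h the brightest PDHA1 probe set is at -0.32 and the others at -1.45 and -1.56, the dimmest of IDH3A is at -0.34 and the others near -1.3, and the probe sets of SUCLA2 differ in sign at 24 h on the deposited scale.

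Fumarase, FH, adds water to fumarate to give malate. Its brightest probe set read 11.26, 11.13 and 10.94 at 0 h, 10.84, 10.83 and 10.90 at 12 h, 10.45, 10.44 and 10.46 at 24 h and 10.18, 10.40 and 10.05 at 72 h. The times followed one another downwards with no overlap between any pair, although the gap of 12 h to 0 h was narrow. The log2 change of -0.25 at 12 h (SE 0.0939, adjusted p = 0.0647) did not pass, and FH fell at 24 h and 72 h, with -0.66 and -0.90 (adjusted p = 7.41e-05 and 4.15e-06), to 63.1% and 53.6% of the level at 0 h. The second probe set gave -0.29, -0.67 and -0.88, with calls at the same times. The dimmest gave -0.29, -0.46 and -0.49, and stayed under the fold limit at each time.

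**Figure D3:**
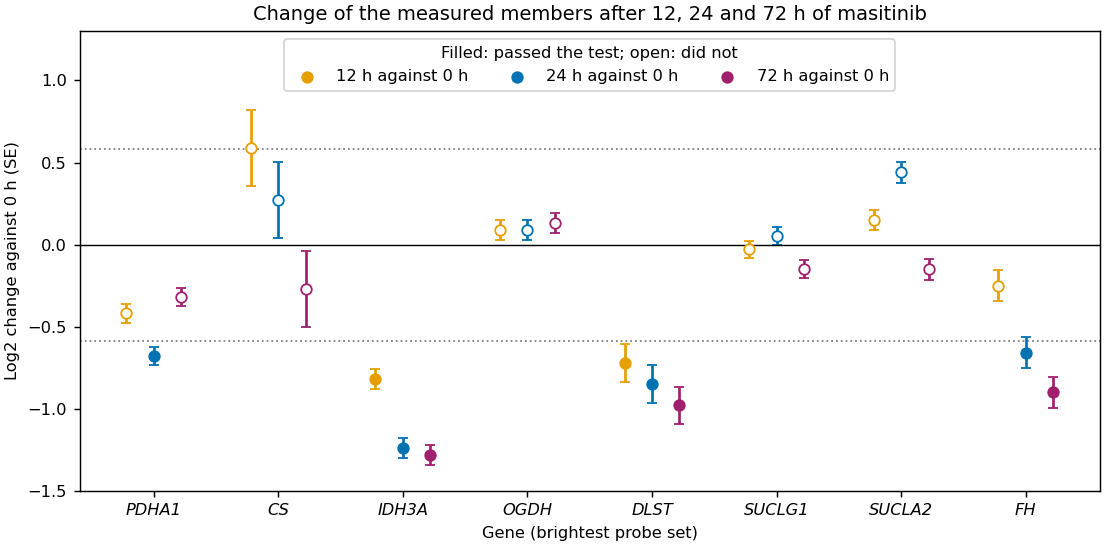
Log2 change against 0 h (vertical axis, with SE of the fit) of the 8 measured genes (horizontal axis) at 12, 24 and 72 h, from 3 arrays per time point; filled points passed the test and dotted lines mark 1.5-fold. IDH3A reaches -1.28, DLST -0.98 and FH -0.90 at 72 h, and the changes above 0 of OGDH at all times, of SUCLA2 at 12 h and 24 h and of CS and SUCLG1 at 24 h turn below 0 on the poly-A scale.

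The order of the 4 times differed between genes, each taken here by its brightest probe set. DLST, FH and IDH3A had their highest mean at 0 h and their lowest at 72 h, and neighbours in that order did not overlap in FH, while in DLST the treated times overlapped and in IDH3A 24 h and 72 h did. PDHA1 was highest at 0 h and lowest at 24 h on its brightest probe set. SUCLG1 and SUCLA2 were highest at 24 h and lowest at 72 h, and CS was highest at 12 h and lowest at 72 h. OGDH was lowest at 0 h, with its treated times not distinct from one another. The dimmer probe set of SUCLA2 had another order, with means of 9.93, 9.85, 9.67 and 9.15 at 0, 12, 24 and 72 h. The dimmest of IDH3A had its lowest mean, 8.35, at 12 h. Between successive times few calls were made: of the 8 genes none passed between 24 h and 12 h, where 4.51% of all genes did and 3.10% fell, and SUCLA2 alone fell between 72 h and 24 h, where 3.78% passed and 1.81% fell. At 12, 24 and 72 h 4, 4 and 6 of the 8 had all treated arrays below the untreated ones, beside 22.9%, 24.8% and 26.4% of all genes, and 2, 2 and 1 had them above, beside 22.1%, 28.2% and 26.3%.
Over the 12 arrays, which share the 4 time points, Pearson's r between the brightest probe sets was 0.932 for IDH3A and DLST, 0.891 for IDH3A and FH and 0.792 for SUCLG1 and SUCLA2, and -0.708 for PDHA1 and SUCLA2. The genes most like a member over these arrays were SRSF3, a splicing factor, for IDH3A (r = 0.996), EMG1, a ribosome biogenesis factor, for PDHA1 (r = 0.994), IPO5, an importin, for FH (r = 0.985), PRPS2, which makes phosphoribosyl pyrophosphate, for DLST (r = 0.980), ACADL, an acyl-CoA dehydrogenase, for CS (r = 0.984), ZNF875 for SUCLA2 (r = 0.961), CCNY, a cyclin, for SUCLG1 (r = 0.957) and EPHA6, an ephrin receptor, for OGDH (r = 0.886). For the mean of the 8 genes it was again IPO5 (r = 0.988), followed by DDX46 (r = 0.986) and HNRNPU (r = 0.986).

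Around the members, 43 further genes of the pathway were listed, and 38 had a probe set. Of these 1 rose and 1 fell at 12 h, 1 rose and 5 fell at 24 h, and 2 rose and 10 fell at 72 h, leaving 36, 32 and 26 that did not pass; of all genes 4.26%, 8.01% and 8.73% rose and 6.30%, 10.0% and 11.0% fell. On the poly-A scale 1, 1 and 1 rose and 5, 28 and 24 fell. That scale moves the median change of all probe sets to -0.28, -0.57 and -0.44. The shares of all genes called on it were not computed, so these counts have no share to be read beside. On the deposited scale the median log2 change of the 38 was -0.05, -0.16 and -0.29. They were chosen from general knowledge of the pathway, with earlier results of these data known.

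In the pyruvate dehydrogenase complex DLAT, the lipoic acid-bearing E2 core, had the largest fall of the 38 at 72 h. It read 7.60, 7.28 and 7.39 at 72 h, against 8.97, 9.16 and 9.04 at 0 h, with log2 changes of -0.63, -1.28 and -1.63 (SE 0.11, adjusted p = 0.000689, 7.99e-07 and 7.07e-08). The call at 12 h was lost when any 1 of 8 arrays was left out (the 3 of 0 h, 12 h replicates 1 and 2, 24 h replicates 2 and 3 and 72 h replicate 3), and a dimmer probe set at -0.72 did not pass at 72 h. PDHX, which binds E3 to the complex, fell at 72 h, with a log2 change of -1.02 (SE 0.0747, adjusted p = 1.58e-07), and its other probe set, at 3.53 to 4.11 on all arrays, did not. PDHB, the E1 beta subunit, had -0.06, -0.01 and -0.23, and the mitochondrial pyruvate carriers MPC1 and MPC2 had -0.40 and 0.07 at 72 h, none of which passed. At 24 h the brightest probe set of MPC1 had -0.49, under the fold limit, and 1 of its 3 probe sets fell.
Among the 7 kinases and phosphatase genes that set the activity of the complex, PDK4 fell and PDK1 gave opposite results on its probe sets. PDK4, a kinase that inhibits E1, read 5.04, 4.78 and 4.99 at 72 h, against 6.43, 6.26 and 6.23 at 0 h, with log2 changes of -0.06, -1.01 and -1.37 (SE 0.0959, adjusted p = 9.92e-08 at 72 h). A second PDK4 probe set, at 3.44 to 3.92 on all arrays, did not pass. PDK1, another such kinase, rose at 72 h by 0.64 on its brightest probe set (SE 0.0594, adjusted p = 1.45e-06), with 12.51, 12.38 and 12.49 at 72 h, against 11.86, 11.79 and 11.82 at 0 h. On the poly-A scale that change was 0.17 and did not pass, and a dimmer probe set fell, with -0.69 (adjusted p = 0.000299). PDK2, PDK3, PDP1, PDP2 and PDPR had 0.31, -0.23, -0.21, 0.03 and 0.74 at 72 h and did not pass, PDPR with adjusted p = 0.0049.

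In the rest of the cycle 2 of 8 measured genes fell at 72 h, beside 11.0% of all genes, and none passed earlier on its brightest probe set. They were SUCLG2 and SDHB, the iron-sulphur subunit of succinate dehydrogenase, which had -0.59 (SE 0.0525, adjusted p = 9.98e-07), just past 1.5-fold and lost without 0 h replicate 2, 72 h replicate 1 or 72 h replicate 3. The flavoprotein subunit SDHA read 12.50, 12.51 and 12.52 at 0 h, 12.78, 12.83 and 12.82 at 12 h, 12.96, 12.84 and 12.89 at 24 h and 12.51, 12.59 and 12.58 at 72 h, and its changes of 0.30, 0.39 and 0.05 did not pass. SDHC and SDHD had -0.42 and 0.11 at 72 h. The partners of IDH3A in its enzyme, IDH3B and IDH3G, had -0.31 and -0.28 at 72 h (adjusted p = 0.00319 and 0.00695) and did not pass. Beside them the 3 probe sets of IDH3A had -1.28, -1.31 and -0.34, and a difference between the genes was not tested. DLD, the E3 subunit that pyruvate and oxoglutarate dehydrogenase share, had -0.47 (adjusted p = 6.56e-05), under the fold limit. MCAT, a malonyl transferase of the mitochondrial fatty acid synthesis from which lipoic acid is made, fell at 24 h and 72 h, with -0.65 and -0.80 (SE 0.0787), on both of its probe sets, while LIAS, the lipoic acid synthase, had -0.40 and LIPT2 0.14 at 72 h, which did not pass.

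At the side entries and exits of the cycle 1 of 15 measured genes rose and 4 fell at 72 h, beside 8.73% and 11.0% of all genes. ME3, a mitochondrial malic enzyme that turns malate into pyruvate, read 4.57, 4.81 and 4.68 at 0 h, 5.98, 5.80 and 5.92 at 12 h, 7.08, 6.52 and 6.80 at 24 h and 6.60, 6.66 and 6.82 at 72 h. It rose by 1.21, 2.11 and 2.01 (SE 0.121, adjusted p = 6.31e-06, 1.79e-08 and 2.53e-08), and by 0.92, 1.51 and 1.54 on the poly-A scale, while its dimmer probe set had 0.35, 0.54 and 0.55 and did not pass. ACLY, which splits exported citrate into acetyl-CoA in the cytosol, fell, with -0.87 at 24 h and -1.05 at 72 h (SE 0.0537, adjusted p = 3.32e-08 and 5.14e-09), and all 3 of its probe sets passed at both times. PCK2, the mitochondrial phosphoenolpyruvate carboxykinase, fell at these times, with -0.85 and -1.16 (SE 0.126), also on 3 probe sets. IDH2, the mitochondrial NADP-dependent isocitrate dehydrogenase, fell at 72 h, with -0.68 (SE 0.0515), as did GOT2, the mitochondrial aspartate aminotransferase, with -0.61 (SE 0.071), a call lost without 72 h replicate 1. The cytosolic IDH1, MDH1 and ACO1 had 0.05, -0.03 and 0.15 at 72 h and did not pass. The brightest probe set of OXCT1 read 8.46, 8.39 and 7.48 at 72 h, against 9.35, 9.07 and 8.86 at 0 h, and its change of -0.99 (SE 0.22, adjusted p = 0.00262) did not pass. Of the 4 probe sets of OXCT1, 1 other fell at 72 h.

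**Figure D4:**
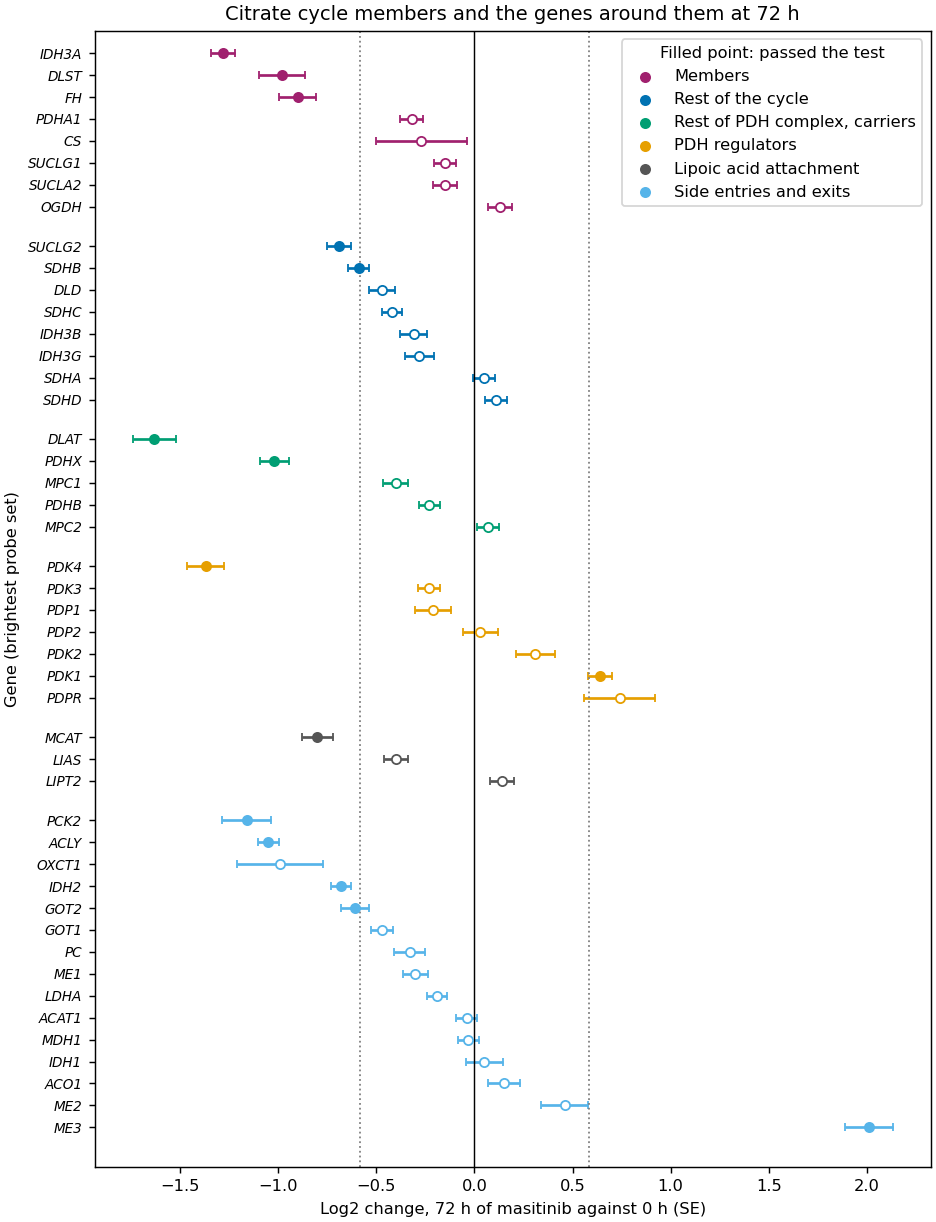
Log2 change at 72 h of masitinib against 0 h (horizontal axis, with SE of the fit) of the 8 members and 38 genes around them (vertical axis), grouped by role, from 3 arrays per time point; filled points passed the test and dotted lines mark 1.5-fold. DLAT has the lowest value, -1.63, and ME3 the highest, 2.01; PDH is pyruvate dehydrogenase, and PDK1, at 0.64, is at 0.17 and not called on the poly-A scale.

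Genes of mitochondrial mass, import and protein care are given beside the members. Of 8 measured, 4, 4 and 5 fell and none rose at 12, 24 and 72 h, beside the 6.30%, 10.0% and 11.0% of all genes that fell, with a median log2 change of -0.59, -0.77 and -0.77, where the members had -0.14, -0.31 and -0.29. TFAM, which packs and transcribes mitochondrial DNA, fell at each time, with -1.17, -1.72 and -1.55 (SE 0.0698, adjusted p = 7.67e-08, 8.57e-10 and 1.71e-09), and HSPD1, the chaperonin of the matrix, fell with -1.17 at 24 h and -1.27 at 72 h (SE 0.0589). The others that fell at 72 h were the import channel TOMM40 (-0.90), the chaperone HSPA9 (-1.16) and the protease LONP1 (-0.63). The outer membrane channels VDAC1 and VDAC2 had -0.57 and -0.52 on their brightest probe sets, under the fold limit, while the other probe set of VDAC2 fell at 12, 24 and 72 h. Of 8 factors that drive the making of mitochondria, PPRC1, a growth-responsive coactivator, fell, with -1.89, -1.34 and -0.64 (SE 0.0989), the last lost without 72 h replicate 2. The dimmer probe set of PPRC1, at 4.1 to 4.83 on all arrays, had -0.19, -0.12 and -0.05 and did not pass. The growth regulator MYC fell at 12 h, with -0.65 (SE 0.0672). MYC had 0.42 at 72 h against 0 h, under the fold limit and -0.05 on the poly-A scale, and rose between 72 h and 24 h, with 0.61 (adjusted p = 4e-05). GABPA rose at 24 h by 0.61, which was 0.01 on the poly-A scale. PPARGC1A, at 3.61 to 4.10 on all arrays, PPARGC1B, NRF1 and ESRRA did not pass at any time. GABPB1 had -0.71, -0.63 and -0.76 on its brightest probe set (SE 0.157), which did not pass, while its other probe set fell at 24 h and 72 h. Whether these genes and the members changed by different amounts was not tested.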

How the data were processed

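RNA of C2 cells was hybridised to Affymetrix Canine Genome 2.0 arrays. The authors summarised probes with the gcRMA workflow of Partek Genomics Suite 6.4 (background correction, then quantile normalization, then median polish), and what they deposited is a log2 value for each probe set on each array. Quantile normalization removes a change of most transcripts in 1 direction.

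The table holds 43035 probe sets. After 111 controls were set aside, 42924 were tested in R 4.3.3 with limma 3.58.1 (lmFit, eBayes, 1 coefficient per time point, all 12 arrays), with Benjamini-Hochberg adjustment. Symbols came from the platform annotation, 27680 of them updated through Entrez identifiers: 29254 probe sets have 1 symbol, 439 several and 13231 none. Calls were made at the limits of the study's methods, an adjusted p below 0.001 together with a fold change above 1.5. Intervals are 95% intervals of the fit. Figures were drawn with matplotlib 3.10.9. Members, lists and alternatives were chosen with earlier results of these data known. Named are all members and their probe sets, called genes and regulators of the other lists, and the genes most like a member by Pearson's r. The number of arrays limits the precision, with a median residual SD of 0.112. No arrays were identical. The steps were tested on simulated data.

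Alternatives were Storey q-values, the methods' analysis of variance, only the 6 arrays compared, other thresholds, no dim probe sets, median, cyclic loess and poly-A scaling, other probe set choices, the replicate block and each array left out.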

Additional observations from a re-analysis of the deposited data

How the results depend on the processing

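The count of members called at 12, 24 and 72 h, reported as 2, 4 and 3, was 0, 1 and 1 with a fold threshold of 2. At 12 h it was 1 with the analysis of variance with Storey q-values, with only the 6 arrays compared and with the probe set of largest change, each time because DLST did not pass. At 72 h it was 6 with poly-A scaling and 5 with the probe set of largest change, to which PDHA1 and SUCLA2 are added. Leaving out 1 array gave 1 to 2 at 12 h, 4 at 24 h and 3 at 72 h. Between 24 h and 12 h poly-A scaling gave 2 calls in place of 0. The call between 72 h and 24 h, SUCLA2, was 0 with a fold threshold of 2, cyclic loess, poly-A scaling and the mean of all probe sets of a gene, 2 with the probe set of largest change, and 0 to 1 with 1 array left out.
For the other pathway genes the counts of 2, 6 and 12 became 1, 3 and 6 with a fold threshold of 2. With poly-A scaling they were 6, 29 and 25. The share of all genes called on that scale, which lowers the changes of all probe sets, was not computed. This holds for the member counts above too. At 12 h the count was 1 with the analysis of variance and with only the 6 arrays compared, 4 with the probe set of largest change, and 1 with the replicate block. Leaving out 1 array gave 1 to 2, 6, and 10 to 12. With poly-A scaling the change turned sign for OGDH (-0.21, -0.51 and -0.34 at 12, 24 and 72 h), SUCLA2 (-0.14 and -0.16 at 12 h and 24 h), CS (-0.33 at 24 h) and SUCLG1 (-0.56 at 24 h), and without 72 h replicate 3 for CS at 72 h, whose change was -0.45 to 0.03 with 1 array left out. The cause of these differences was not tested, beyond what the settings themselves change. All other counts of calls stayed within 1.5 times of those reported.
Whether the replicate numbers pair the samples is not given in the sources used here, and correlations among so few arrays cannot decide it. The deviations of arrays with the same number correlated at -0.329 to 0.411, over 0.1 in 5 of 18 pairs. Those with other numbers correlated at -0.455 to 0.461, and 4 of 12 arrays correlated best with their own number. The block changed no call of a member, with 2, 4 and 3 calls.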
